A study of Elaeis guineensis with 2 samples.

Results

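The regions described here are EgAGL9 peaks on those unplaced scaffolds of the oil palm genome that carried 3 or more peaks each. They were taken from 1 list of 7919 peaks. A peak was kept if its sequence name began with NW_, if that sequence held at least 3 peaks in the list, and if its summit lay at least 1000 bp from every other summit on the same sequence. The list held 2139 peaks on 470 such scaffolds. The spacing rule left out 227 of them (10.6%), which lay on 103 scaffolds. The remaining 1912 peaks on 466 scaffolds are called member peaks. They are 24.1% of the whole list and 30.8% of the 6208 scaffold peaks. Within the list only position and number of peaks chose them, although entry to the list itself rested on the peak call.

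The study took oil palm fruit (Elaeis guineensis, cultivar label Jacq) and sequenced DNA bound to EgAGL9 after chromatin immunoprecipitation. Both samples carried the genotype EgAGL9 overexpression and had no further treatment. The immunoprecipitate was pulled down with an antibody listed as EgAGL9, and the input was sequenced with no antibody. The promoter behind the overexpression, the age of the fruit and the number of plants are not given in the sources used here. With 1 sample in each group and no control immunoprecipitate, a difference between sets of peaks cannot be tested over samples. Sets are therefore described by counts, medians and intervals that cover counting error only. The fruit label could not be checked against marker genes, since a peak list holds no expression values.

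EgAGL9 is named after AGL9 of Arabidopsis, also known as SEPALLATA3, a MADS-domain transcription factor. Such factors bind DNA as dimers at CArG boxes, short sites with an A/T-rich core, and SEPALLATA proteins act as bridges that join other MADS-domain proteins into larger complexes in the flower. An unplaced scaffold is a stretch of assembled sequence that could not be anchored to a chromosome, often because repeats surround it. An input library shows how strongly a place is covered without an antibody, and repeats that the assembly holds in fewer copies than the genome collect extra input reads.

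Most of the scaffolds carried few member peaks. There were 190 scaffolds with 3 members and 86 with 4, while 41 had 1 member and 23 had 2 because their other peaks failed the spacing rule. A further 126 scaffolds had 5 or more members. Only 20 had 10 or more, and these held 248 member peaks. The most were 19, on NW_011550925.1. Close peaks were left out at a higher rate here than on the 16 chromosome sequences, where 104 of 1711 peaks (6.08%) fell to the same rule and 1607 stayed. Choosing scaffolds by their number of peaks bears on this rate, and its part in it was not tested.

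Enrichment at member peaks was modest and close to that of the rest of the list. The authors' fold enrichment compares the immunoprecipitate pileup, the number of fragments over the summit base, with the pileup expected from the input. Its median over the 1912 member peaks was 2.65 (95% order-statistic interval 2.60 to 2.70), with a 5th percentile of 1.77, a 95th percentile of 4.25 and a range of 1.34 to 6.88. Over all 7919 peaks the median was 2.66. There were 156 member peaks with a fold of 4 or more (8.16%, exact 95% interval 6.97 to 9.48%), where the background over the whole list was 8.26%. There were 28 with a fold of 5 or more (1.46%, 0.975 to 2.11%) against a background of 1.70%. There were 1185 with a −log10 q of 5 or more (62.0%, 59.8 to 64.2%) against 61.5%. Each of the 3 shares was within its counting interval of the background.

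Member peaks were about as narrow as the rest of the list. Their median width was 280 bp (273 to 286 bp), from 191 to 1212 bp, and 1103 of them (57.7%) were under 300 bp wide. There were 142 (7.43%) of 500 bp or wider. Over all peaks the median was 273 bp (270 to 275 bp), with 60.0% under 300 bp and 6.72% of 500 bp or wider. The median summit lay 0.488 of the way along the peak, and on chromosomes 0.491.

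The input was raised at most member peaks, as it was over the whole list. Expected pileups are given here as multiples of the genome-wide level of 2.36 fragments, the lowest value in the list. The median was 9.83 times that level (9.05 to 10.6), with a 5th percentile of 1.14 and a 95th percentile of 92.7. At 950 member peaks (49.7%, 47.4 to 52.0%) it was over 10 times the level, and at 88 (4.60%, 3.71 to 5.64%) over 100 times. Over all 7919 peaks these shares were 48.0% (46.9 to 49.1%) and 3.88% (3.46 to 4.33%). The genome-wide level itself was the comparison at 60 member peaks (3.14%), and over all peaks at 3.13%. At 1697 (88.8%, 87.3 to 90.1%) the expected pileup was a whole multiple of the value of 1 input fragment, which means that the narrow window of 1 fragment length around the summit had set it. Over all peaks this share was 88.2%. MACS2, the peak caller, takes the largest of several window values and the genome-wide level, so no value can lie below the level. Whether copies of a repeat stacked on 1 assembled copy raised the input at these sites was not tested.

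Against chromosome peaks chosen by the same spacing rule, member peaks had more input and a slightly lower fold. The median expected pileup was 23.2 fragments at member peaks (21.3 to 25.01) and 17.1 at the 1607 chromosome peaks (15.7 to 18.99), a ratio of 1.35, and the intervals did not overlap. The median fold was 2.65 against 2.76 (2.71 to 2.82) on chromosomes, 0.11 lower. Here too the intervals did not overlap. Input over 10 times the level was found at 42.5% of chromosome peaks (40.1 to 45.0%), and input of at most 2 times the level at 21.4% (19.4 to 23.5%) against 16.7% (15.1 to 18.5%) of member peaks. Over the whole list the share at 2 times the level or less was 16.8% (15.9 to 17.6%), close to that of member peaks. The median −log10 q was 6.93 at member peaks (6.51 to 7.36) and 6.19 on chromosomes (5.67 to 6.64), with intervals that overlap. So did those of the median widths, 280 bp and 270 bp (265 to 275 bp). Of the chromosome peaks, 9.83% had a fold of 4 or more (8.42 to 11.4%), and that interval overlaps the one of member peaks.

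The 2809 peaks that were alone on their scaffold lay between these groups in input. Their median expected pileup was 19.5 fragments (17.6 to 20.8), so that member peaks stood at 1.19 times their value. Their median fold was 2.68 (2.65 to 2.72), and its interval overlapped that of member peaks, with a difference of -0.026. Their median width was 267 bp (264 to 272 bp) and their median −log10 q 5.97 (5.72 to 6.27), both below the member peaks with no overlap of the intervals. Input over 100 times the level was found at 2.99% of them (2.39 to 3.69%), against 4.60% of member peaks. Peaks on scaffolds with 2 peaks, under the same spacing rule, had a median expected pileup of 27.3 fragments (24.5 to 30.1). That median was above the one of member peaks, and the 2 intervals overlap. The sets also differed in where they lay. The summit was under 10 kb from the start of the sequence at 67.5% of lone peaks, at 7.06% of member peaks and at 0.124% of chromosome peaks. The length of a sequence bounds this distance, and the sets were chosen by kind of sequence and number of peaks. The rule therefore bears on this difference, and its part in it was not tested.

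**Figure D1:**
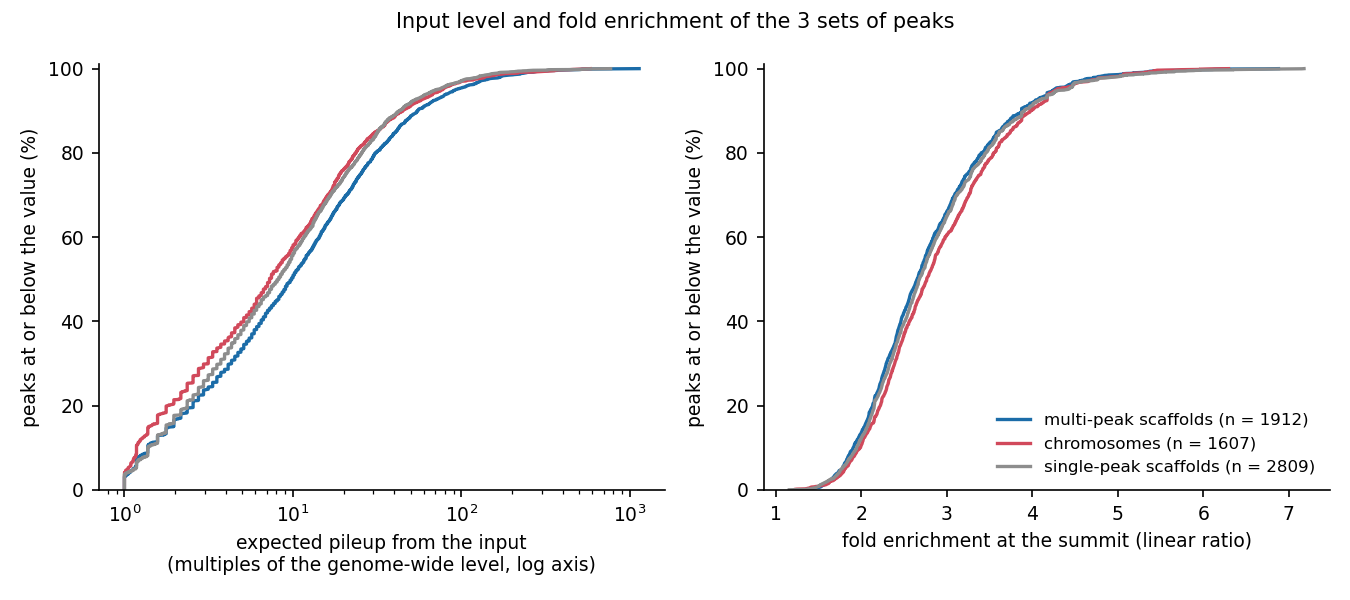
Cumulative share of peaks (vertical axis, %) by expected pileup from the input as a multiple of the genome-wide level (left, log axis) and by fold enrichment (right, linear ratio), for peaks on multi-peak scaffolds (n = 1912), chromosomes (n = 1607) and single-peak scaffolds (n = 2809). The curve of multi-peak scaffolds is shifted to higher input over most of its length, with a median of 9.83 times the level, while the fold curves lie close together.

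At like input, the folds of the 3 sets lay close together. All 7919 peaks were divided into 10 equal bins by expected pileup, and the median fold was taken within each bin. At member peaks it was 3.87 (3.77 to 3.97, n = 196) in the lowest bin, where the input was at a median of 1.15 times the level, and 2.22 (2.103 to 2.29, n = 214) in the highest, at 85.2 times. Chromosome peaks had 3.79 (3.65 to 3.87, n = 235) and 2.18 (2.06 to 2.34, n = 140) in the same bins, and lone scaffold peaks 3.97 (3.87 to 4.10, n = 273) and 2.14 (2.09 to 2.22, n = 223). Members were above chromosome peaks in 5 of the 10 bins, and above lone peaks in 5. The mean difference over the bins was -0.0033 from chromosome peaks, with single bins from -0.10 to 0.088. From lone peaks it was 0.0090, with bins from -0.095 to 0.11. Within bins the mean difference from chromosome peaks was near 0, while the medians of the whole sets were 0.11 apart. The bins were cut by the same value from which fold is computed. A peak with little input also needs a higher fold to be called. Both bring the medians of any sets together within a bin in advance. Whether input accounts for the gap of 0.11 was therefore not tested. The member set also had a different mix of bins, with 11.2% of its peaks in the highest and 10.3% in the lowest, where chromosome peaks had 8.71% and 14.6%.

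**Figure D2:**
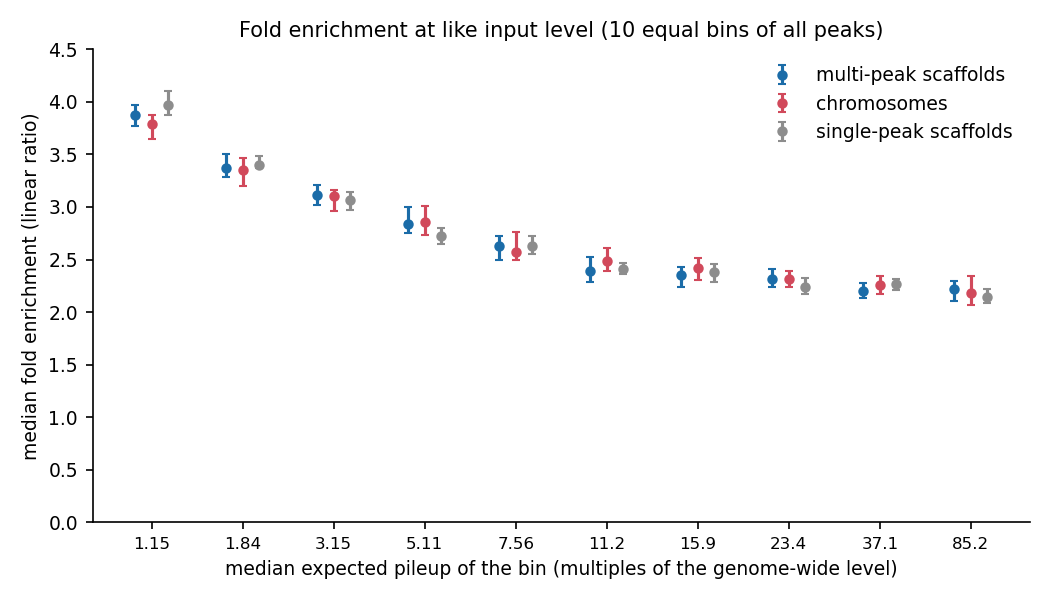
Median fold enrichment (vertical axis, linear ratio) in 10 equal bins of all peaks by expected pileup, labelled with the median of each bin as a multiple of the genome-wide level; bars are 95% order-statistic intervals. At multi-peak scaffolds the median goes from 3.87 in the lowest bin to 2.22 in the highest, and the other sets follow the same course.

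Member peaks therefore covered a range from strong ratios on few fragments to weak ratios on many. At 320 member peaks the input stood at 2 times the level or less (16.7%, against 16.8% over the whole list). They had a median fold of 3.74 (3.66 to 3.87) on a median pileup of 14 fragments. They lay on 219 scaffolds, and they held 109 of the 156 folds of at least 4 and 26 of the 28 of at least 5. The 950 member peaks over 10 times the level had a median fold of 2.28 (2.25 to 2.33) on a median pileup of 141 fragments. They lay on 405 scaffolds and held 4 folds of at least 4 and none of at least 5. The calling limit removes low folds where the input is low, and expected pileup is the denominator of fold. Both favour such an order in advance. As a description across 1912 peaks that share both libraries, the Spearman correlation was -0.69 between fold and expected pileup. It was 0.27 between width and expected pileup.

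Ranked by −log10 q, the top 10 member peaks reached 215.1 to 460.6 and were covered very deeply in both libraries. Input there was 168.3 to 1139 times the level, and fold was 1.90 to 3.37. The highest was peaks4440 on NW_011552430.1 (7196 to 7893), with 2144 immunoprecipitate fragments and 1393 input fragments, a ratio of 3.32 after scaling for depth (exact 95% interval 3.11 to 3.56). Next came peaks7294 on NW_011580734.1 (47 to 450), with 2974 and 2579 fragments and a scaled ratio of 2.49 (2.36 to 2.63). Most fragments of all were at peaks3310 on NW_011551409.1 (58389 to 58592), where the ratio was 1.90 (1.83 to 1.97). The largest ratio of the 10 was 3.38 (3.10 to 3.68), at peaks2395 on NW_011551026.1 (938392 to 938638).

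The others among these 10 had ratios between the extremes just given. They were peaks3789 on NW_011551743.1 with 2.87 (2.67 to 3.09), peaks4442 on NW_011552430.1 with 2.71 (2.52 to 2.91) and peaks5606 on NW_011555495.1 with 2.74 (2.54 to 2.96). The last 3 were peaks1781 on NW_011550910.1 with 2.35 (2.21 to 2.50), peaks2528 on NW_011551078.1 with 2.23 (2.101 to 2.36) and peaks2314 on NW_011551004.1 with 2.25 (2.11 to 2.40). All 10 intervals lay above 1. Intervals cover counting error only, would be too narrow if duplicate reads were kept, and take no account of the selection of these 10 by their own counts.

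The scaffolds of the 3 highest member peaks were looked at after their values were seen, and they differed from each other. On NW_011552430.1 all 4 peaks were members, between 7196 and 22070, and 2 of the 10 highest were among them. Their pileups in order along the scaffold were 2144, 240, 1709 and 128 fragments. Expected pileups were 273.9, 28.9, 268.2 and 16.5 times the level. Folds lay between 2.70 and 3.49. The ratios of peaks4440 and peaks4442, 3.32 (3.11 to 3.56) and 2.71 (2.52 to 2.91), did not overlap, although their depths were close. On NW_011580734.1 all 3 peaks were deep, with pileups of 2974, 441 and 504 fragments. Their folds were 2.49, 1.92 and 1.86. On NW_011551409.1, by contrast, peaks3310 had a pileup of 5095 fragments while the other 5 had between 12 and 142. The neighbour 7506 bp away, peaks3311, had an expected pileup of 10.03 times the level, against 1139 times at peaks3310.

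Ranked by fold, the top 10 member peaks were other sites, with little input. Fold was 5.53 to 6.88 on pileups of 21 to 46 fragments, and input was 1.09 to 2.95 times the level. The highest was peaks2154 on NW_011550969.1 (1414081 to 1414424), with 25 immunoprecipitate and 6 input fragments, a ratio of 8.997 with an interval of 3.60 to 26.8. The best covered was peaks2194 on NW_011550979.1 (737737 to 738046), with 46 and 15 fragments and a ratio of 6.62 (3.63 to 12.8). It also had the highest −log10 q of the 10, at 18.98. Next came peaks2457 on NW_011551055.1 (135123 to 135381), with 38 and 12 fragments and 6.84 (3.50 to 14.4), and peaks2319 on NW_011551005.1 (123194 to 123388), with 34 and 10 fragments and 7.34 (3.55 to 16.7). At these depths a single ratio is known only to within several-fold.

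The remaining 6 had pileups of 21 to 31 fragments. They were peaks2998 on NW_011551266.1 (fold 6.72), peaks2190 on NW_011550978.1 (6.13), peaks1795 on NW_011550911.1 (6.10), peaks5157 on NW_011553958.1 (5.82), peaks5990 on NW_011558368.1 (5.68) and peaks3392 on NW_011551446.1 (5.53). Each of the 10 lay on a scaffold of its own, and none of those scaffolds held any of the 10 highest by −log10 q. Member peaks lay on 466 scaffolds, so lists as short as these would seldom share one. Choosing the highest folds favours ratios that are too high.

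Member peaks lay closer to each other than chromosome peaks. From one summit to its closest neighbour the median was 35248 bp (32374 to 39100 bp) at member peaks and 110422 bp (99306 to 117970 bp) on chromosomes, 3.13 times as far. Over all peaks, lone ones included, 22.7% had a neighbour under 10 kb away. Such a neighbour was found for 507 member peaks (26.5%, 24.5 to 28.6%) and for 18.0% of chromosome peaks (16.1 to 19.95%). The rule bears on this, since it asks for 3 peaks on 1 scaffold, and a scaffold is shorter than a chromosome. Lengths of scaffolds were not used here. On the 402 scaffolds with 3 or more members, the span from the first to the last member summit had a median of 224.4 kb and ran from 2.585 to 5689 kb.

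Values of member peaks followed no steady course with the distance to the nearest neighbour. The 335 member peaks with a neighbour at 1 to 5 kb had a median fold of 2.57 (2.47 to 2.70) and a median expected pileup of 10.2 times the level (8.85 to 11.6). The 435 with no neighbour within 100 kb had 2.71 (2.66 to 2.83) and 8.46 times (6.49 to 10.2). Widths were 299 bp (284 to 314 bp) in the first group and 277 bp (260 to 289 bp) in the second. Between these end classes the intervals of fold, input and width overlapped. The 412 with a neighbour at 5 to 20 kb had a median fold of 2.73 (2.64 to 2.84), and the 730 at 20 to 100 kb had 2.58 (2.53 to 2.65), below the interval of those over 100 kb. The width of the 730, 276 bp (266 to 283 bp), was below the interval of the closest class. A fold of 4 or more was found at 22 of the 335 (6.57%, 4.16 to 9.77%) and at 39 of the 435 (8.97%, 6.45 to 12.1%), against the background of 8.26%.

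Neighbouring peaks a few kb apart resembled each other in input, and those farther apart did not. Of 1411 pairs of neighbouring summits that were both members, 161 pairs on 125 scaffolds were 1 to 5 kb apart. Between the peaks of these pairs the expected pileup differed by a median factor of 2.25 (2.08 to 2.65), and the Spearman correlation across the pairs was 0.53. At 5 to 20 kb the factor was 3.44 (2.95 to 4, 230 pairs) and the correlation 0.13. At 20 to 100 kb they were 3.32 (2.95 to 3.68, 518 pairs) and 0.024, and over 100 kb 3.92 (3.52 to 4.5, 502 pairs) and 0.0032. An expected pileup within 2-fold of each other was found for 61 of the 161 closest pairs (37.9%, 30.4 to 45.9%) and for 131 of the 502 farthest (26.1%, 22.3 to 30.2%). Pairs share both libraries, and some share a scaffold or a peak. These values are descriptions with no test.

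The likeness of close neighbours was weaker in fold than in input. The Spearman correlation of fold was 0.20 at 1 to 5 kb, 0.038 at 5 to 20 kb, -0.035 at 20 to 100 kb and 0.034 over 100 kb. Neighbours up to 5 kb apart can share the wider windows in which MACS2 counts input, and the part of such sharing was not tested. Among the 144 pairs in which the narrow window had set both values, the correlation was 0.50 and the median factor 2.23 (2.08 to 2.66). On chromosomes the correlation was also highest for the closest pairs. The Spearman correlation of expected pileup was 0.41 over 86 pairs at 1 to 5 kb, 0.19 over 110 pairs at 5 to 20 kb and -0.0052 over 1103 pairs farther than 100 kb apart. By the other measures, the closest chromosome pairs were more alike than those of member peaks, though the intervals over all pairs overlap. Their median factor was 1.86 (1.56 to 2.27), against 2.25 (2.08 to 2.65). The share within 2-fold was 55.8% (44.7 to 66.5%), against 37.9% (30.4 to 45.9%). Among narrow-window pairs the factors were 1.71 (1.53 to 2, 74 pairs) on chromosomes and 2.23 (2.08 to 2.66) at member peaks, with no overlap. Among member peaks, the correlation of expected pileup at 1 to 5 kb was -0.0054 when the list was restricted to folds of at least 3, where 15 pairs were left.

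**Figure D3:**
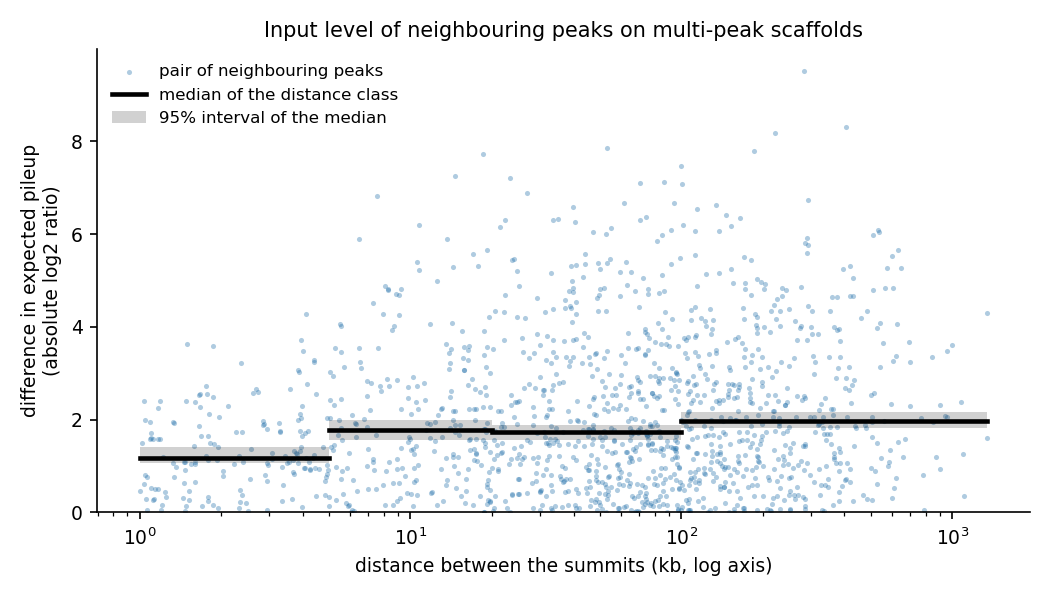
Difference in expected pileup between neighbouring member peaks (vertical axis, absolute log2 ratio) by the distance between their summits (kb, log axis); points are the 1411 pairs, black lines the medians of 4 distance classes and grey bands their 95% order-statistic intervals. The median ratio is 2.25 at 1 to 5 kb and between 3.32 and 3.92 in the classes beyond.

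Whole scaffolds were mixed in both input and fold. The intraclass correlation, the share of the variance that lies between scaffolds, was 0.041 for log2 expected pileup over 1871 member peaks on 425 scaffolds with at least 2 members, and -0.0022 for log2 fold. The values between chromosomes were -0.0016 and 0.0036. Without summits in the first 10 kb of a sequence, the value for expected pileup was 0.015. On the 126 scaffolds with 5 or more members, the highest expected pileup was a median of 31.1 times the lowest on the same scaffold (23.2 to 41.9), and over 10 times on 106 of them. A fold of at least 4 was present on 64 of the 126, a fold under 2 on 75, and both on 41. Of all member peaks, 8.16% had a fold of at least 4 and 13.7% a fold under 2. Over the whole list these shares were 8.26% and 12.9%. How many scaffolds such shares alone would give was not computed, nor was the span of input among as many peaks taken from the whole list. All members exceeded 10 times the level on 1 scaffold, and all were at or below it on 3. Values differed little with the number of peaks on a scaffold. The median fold was 2.63 (2.55 to 2.72) on scaffolds with 3 peaks and 2.62 (2.50 to 2.76) on those with 10 or more, and expected pileups were 10.2 times the level (8.85 to 12.0) and 9.05 times (7.08 to 11.8).

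**Figure D4:**
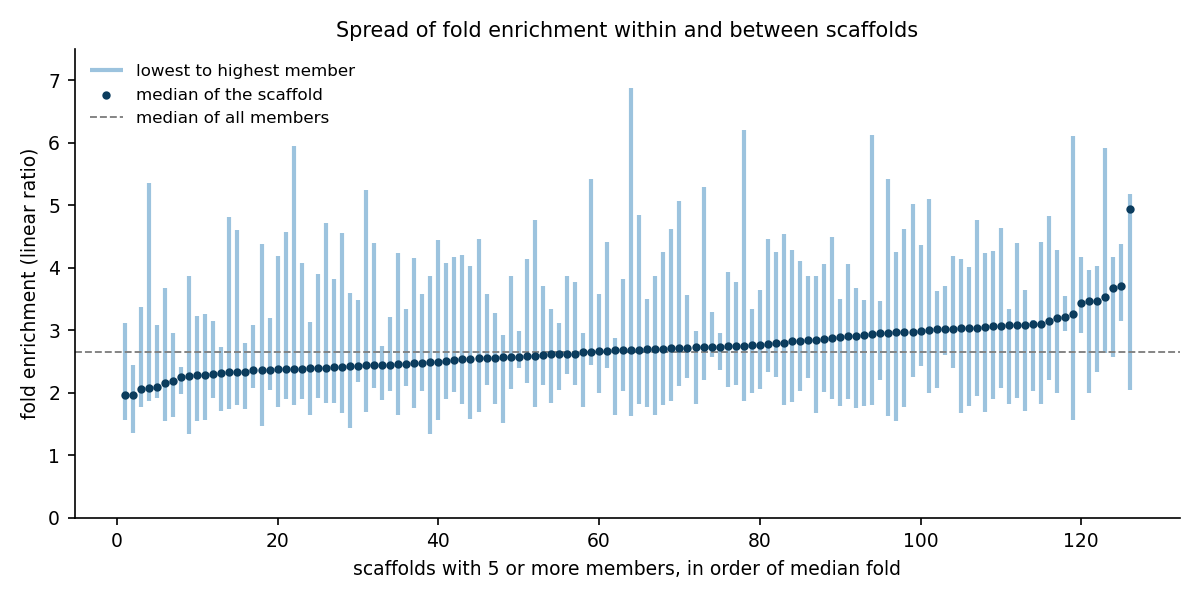
Fold enrichment (vertical axis, linear ratio) on the 126 scaffolds with 5 or more member peaks, in order of their median; dots are scaffold medians, bars run from the lowest to the highest member and the dashed line is the median of all members, 2.65. Scaffold medians run from 1.96 to 4.95, and the bars of most scaffolds cross the line.

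Median fold over those 126 scaffolds ran from 1.96 to 4.95, with quartiles of 2.44 and 2.96. The highest was on NW_011551318.1, which had 5 members. Of these, 3 had little input and folds of 5.19, 5.07 and 4.95 on pileups of 21, 16 and 20 fragments. The other members there had folds of 2.28 and 2.05 on 191 and 315 fragments. The next 4 scaffolds were NW_011552335.1 with 3.71, NW_011551002.1 with 3.68, NW_011550979.1 with 3.54 and NW_011551069.1 with 3.48. On each of these 4 the median expected pileup of the members was between 2.56 and 2.95 times the level. The highest member value was 11.6, 5.11, 17.9 and 5.31 times the level, in the same order.

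The lowest medians were 1.96 on NW_011551437.1, 1.97 on NW_011551119.1, 2.06 on NW_011551162.1, 2.08 on NW_011551313.1 and 2.09 on NW_011551438.1. Median expected pileups there were between 6.88 and 54.6 times the level. On NW_011551119.1 all 6 members stood at 12.8 to 132.3 times the level, with folds of 1.36 to 2.44. On NW_011551313.1, 6 of the 7 members had folds of 1.87 to 2.45, and peaks3117 had a fold of 5.37 on 17 fragments against the genome-wide level. With 5 to 7 members each, these scaffolds stand at the ends of an ordered list and were not tested against the others.

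NW_011550925.1 shows the mix on 1 scaffold. Its 19 peaks were all members and spanned 2351 kb. Along the scaffold their folds were 3.54, 1.78, 2.48, 3.69, 2.03 and 2.01 within the first 84.6 kb, then 1.598 and 1.93. A gap of 904138 bp with no peak followed. After it came folds of 3.56, 3.03, 2.64, 1.58, 3.53, 2.12 and 4.04, and at the far end 2.55, 3.05, 2.95 and 2.13. There were 7 folds of at least 3 and 4 under 2, on both sides of the gap, and 4 low ones of 1.598 to 2.03 followed each other just before it.

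Depth on this scaffold varied more than fold. Pileups ran from 17 to 1031 fragments and expected pileups from 1.57 to 143.4 times the level, with 12 of the 19 over 10 times. The deepest was peaks1912 (2157971 to 2158326), with 1031 and 729 fragments and a ratio of 3.05 (2.77 to 3.36). The highest fold was at peaks1910 (1927327 to 1927530), with 18 and 8 fragments and a ratio of 4.86 (2.01 to 12.9). The lowest was at peaks1907 (1710238 to 1710576), with 132 and 180 fragments and a ratio of 1.58 (1.26 to 1.99). The intervals of the last pair did not overlap, although they rest on the counts by which the peaks were picked. The closest neighbours, peaks1905 and peaks1906, were 1025 bp apart and had ratios of 3.17 (1.98 to 5.14) and 2.68 (2.02 to 3.57), which overlap.

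**Figure D5:**
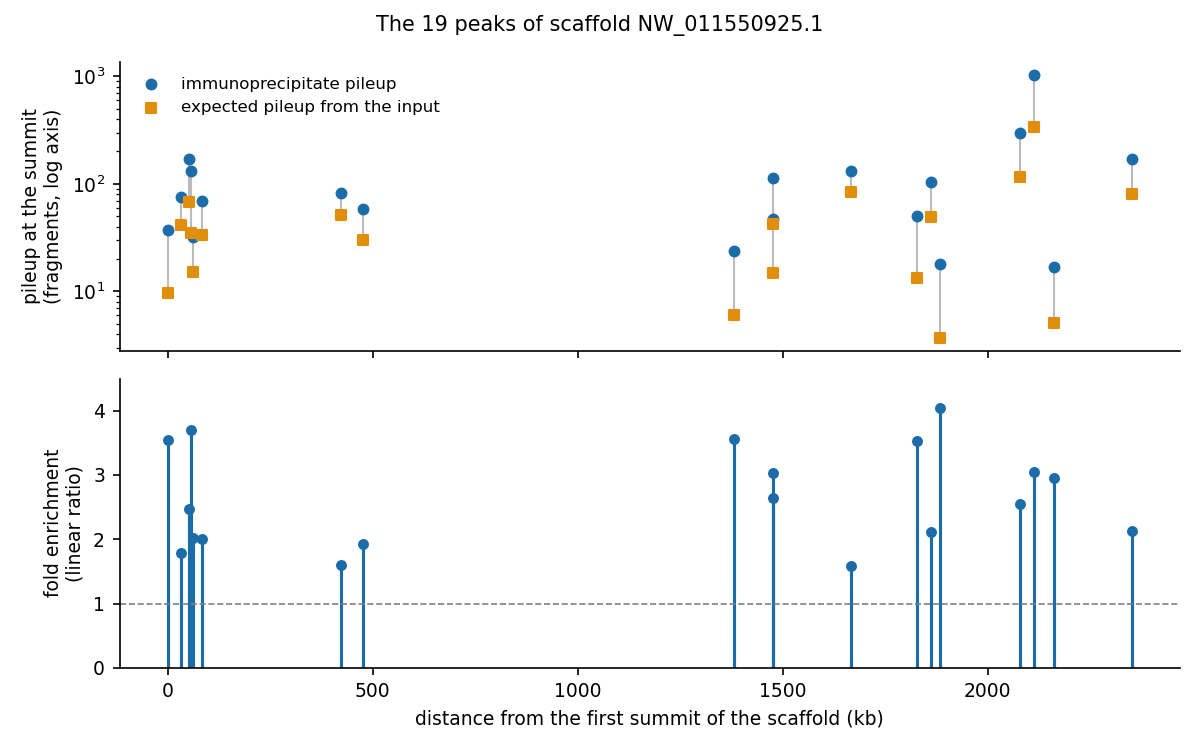
The 19 peaks of scaffold NW_011550925.1 by distance from its first summit (kb): above, the immunoprecipitate pileup (circles) and the expected pileup from the input (squares) at each summit, in fragments on a log axis; below, the fold enrichment (linear ratio, dashed line at 1). Pileups run from 17 to 1031 fragments, while folds stay between 1.58 and 4.04.

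At the spacing limit, folds just inside and just outside were in overlapping ranges, while pileups reached higher outside. The 6 member peaks nearest the spacing limit had neighbours at 1001 to 1025 bp, folds of 1.91 to 3.44 and pileups of 29 to 321 fragments. The 6 nearest left-out peaks had neighbours at 957 to 975 bp, folds of 1.38 to 3.78 and pileups of 36 to 1408 fragments. All 227 left-out peaks together had a median input of 20.5 times the level (14.4 to 25.4) and a median fold of 2.54 (2.44 to 2.61). Their input lay above the interval of member peaks, 9.05 to 10.6 times the level, while the intervals of fold just overlapped. Scaffolds with 2 peaks, just below the limit of 3, held 1028 peaks under the same spacing rule, with a median fold of 2.61 (2.54 to 2.65) and an expected pileup of 11.6 times the level (10.4 to 12.8). Members on scaffolds with exactly 3 peaks numbered 578, with 2.63 (2.55 to 2.72) and 10.2 times (8.85 to 12.0).

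Member peaks near the start of a scaffold resembled the others in fold. The 135 with a summit in the first 10 kb had a median fold of 2.51 (2.39 to 2.82) and an expected pileup of 12.4 times the level (8.26 to 17.7). The other 1777 had 2.66 (2.61 to 2.70) and 9.64 times (8.85 to 10.6), and both pairs of intervals overlap. Median widths of 301 bp (280 to 325 bp) and 278 bp (271 to 284 bp) had intervals that overlap as well. The shares of wide and of highly ranked peaks were higher near the start. There, 15.6% (9.89 to 22.8%) were 500 bp or wider, against 6.81% (5.68 to 8.08%) of the others, and 73.3% (65.0 to 80.6%) had a −log10 q of 5 or more, against 61.1% (58.8 to 63.4%). Lone scaffold peaks showed no such rise. Near the start 5.91% of them (4.89 to 7.07%) were 500 bp or wider, against 5.47% (4.09 to 7.15%) farther in. For a −log10 q of 5 or more their shares were 57.8% (55.5 to 60.0%) and 59.3% (56.0 to 62.5%). Member peaks near the start also had a neighbour under 10 kb away more often, at 52.6% against 24.5%. Whether the cut edge of the sequence affected the expected pileup there was not tested.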

How the data were processed

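One list of peaks was analysed, called once with the immunoprecipitate against the input. Per the submitters' processing notes, BWA 0.7.8 and MACS2 2.1.1 were among the tools; the sources used here give no parameters, genome build, read depth or duplicate handling. The deposited fold enrichment is a linear ratio per peak, the deposited −log10 p and −log10 q are those at the summit, and the deposited score is that −log10 q multiplied by 10, without its decimals; all are the authors' values. Starts are given here 1-based on the named RefSeq sequences.

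Pileups were recovered as the whole number at which the deposited fold, with a pseudocount of 1, and the Poisson p both held, for 7919 of 7919 peaks (largest residual 0.029 of 1 fragment's effect; tested on simulated data). Expected pileups in 6984 peaks were multiples of 0.463 within 0.003, read as 1 input fragment at a depth ratio of 2.16. The step could also be 1 read end. Every multiple of the genome-wide level depends on unstated settings.

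Intervals on medians are exact binomial order-statistic intervals, on shares exact binomial, and on ratios Clopper-Pearson, each at 95%. They take peaks or fragments as independent. No p-value was computed, as each group has 1 sample. Peaks were named by rule: the 10 highest by −log10 q and by fold, the scaffold with most members, the scaffolds with the 5 highest and 5 lowest median folds, and those at the limits of the rule. Members, comparisons and lists were chosen with earlier results of these data known. No sequence, CArG box or gene is given, as the gene table at hand is of the EG11 assembly and no sequence of the list's scaffolds was used here. Python 3.11.15 with scipy 1.17.1 and pandas 2.3.3 was used.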

Additional observations from a re-analysis of the deposited data

How the results depend on the processing

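No paired analysis was possible because there was 1 immunoprecipitate and 1 input, and neither could be left out in turn. Of 73 values under alternatives, 53 kept their direction and moved by less than the counting error of the main value, or by less than 1.5 times for counts and correlations. The 1912 members became 905 under a −log10 q limit of 5, 302 with a fold of at least 3 and 962 with 5 or more peaks per scaffold. The differences in median fold fell to -0.0033 from chromosome peaks and turned to 0.0090 from lone peaks when averaged within 10 bins of expected pileup. The ratio of expected pileups to chromosome peaks was 1.14 with a fold of at least 3, and that to lone peaks turned to 0.96 (the cause was not tested). Under the other alternatives the ratio to chromosome peaks lay between 1.20, among narrow-window peaks, and 1.39, with no spacing limit. Without bins, the difference in median fold from chromosome peaks lay between -0.050, with a fold of at least 3, and -0.13, with no spacing limit. Folds of 4 or more made up 10.2% of members at a −log10 q of 5 or more and 5.19% among narrow-window peaks (an alternative added after seeing the data, as was the correlation between neighbours as a result). The shares of all peaks under these limits were not computed, so the 8.26% of the whole list is no background for them. The median distance to the nearest summit was 41634 bp when a −log10 q of 5 was required, 71558 bp with a fold of at least 3, 25756 bp with no spacing limit and 41634 bp with a limit of 2000 bp. The intraclass correlation of expected pileup was 0.066, 0.096, 0.016, 0.085, 0.025 and 0.015 under a −log10 q limit of 5, a fold of at least 3, 5 or more peaks per scaffold, no spacing limit, a limit of 2000 bp and no summits in the first 10 kb; the cause was not tested. The Spearman correlation between neighbours at 1 to 5 kb turned to -0.0054 with a fold of at least 3, on 15 pairs in place of 161. Alternatives for CArG boxes and genes were not run. Few fragments limit the folds of low-input members, whose median pileup was 14.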
